A study of Drosophila melanogaster with 4 samples.

Results

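The subject is 77 mRNA transcript rows of 76 Drosophila melanogaster genes that were almost empty in Control ovaries and well filled in ovaries depleted of the nucleoporin Nup358. The rows were chosen from the deposited expected counts themselves: a RefSeq mRNA row qualified with an expected count under 5 in both Control libraries and of 100 or more in both Nup358GLKD libraries. They were 0.247% of the 31193 mRNA rows in the table. An expected count is the number of reads that the program RSEM assigns to a transcript, and it can be a fraction because reads that fit several transcripts are divided among them. Because the rule used these counts, the values of the rows are given as a description and no test was made of them.

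Poly(A)-enriched RNA came from ovaries of adult flies, 10 to 15 pairs for each library. There were 2 Control libraries (mat>Luc) and 2 Nup358GLKD libraries, in which Nup358 was knocked down in the germline. The driver of the knockdown is not given in the labels of the libraries, and whole ovaries also hold somatic cells that a germline knockdown does not reach. Library totals were between 58876800 and 60792292 expected counts, and levels are given as CPM over TMM-scaled library sizes, which do not correct for transcript length. Nup358 itself held 662.2 and 624.3 CPM in Control replicates 1 and 2 and 282.7 and 151.3 CPM in Nup358GLKD replicates 1 and 2, and it did not pass edgeR's quasi-likelihood test (log2 change -1.57, SE 0.34, adjusted p = 0.0524). It passed with DESeq2 (log2 change -1.60) and with the replicate block (-1.64), but not with RLE factors (-1.55) or without a filter (-1.63). With 1 library left out at a time, its log2 change ran from -2.09 to -1.21, and it passed only without a knockdown library. The labels call the libraries biological repeats without naming separate flies, and the p-values here reflect no more than the spread among these libraries. In whole ovaries, a different number of cells of a type and a different amount of RNA per cell cannot be told apart.

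Most fly genes make several mRNAs, from alternative start sites, splice choices and ends, and RefSeq gives each of them a row of its own. An empty row that fills can therefore mean that a silent gene is transcribed, or that the reads of an active gene fall on another of its transcripts. Nup358 sits on the cytoplasmic face of the nuclear pore, and its vertebrate counterpart, also called RanBP2, binds Ran and acts as a SUMO ligase.

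The level of the whole gene in Control separated the rows. Counts of all RefSeq rows of a gene were summed with an NCBI RefSeq gene table, which named the gene of every row of the set. Only 3 rows (3.90%) belonged to genes whose total was also under 5 in both Control libraries, called newly expressed here. Another 5 rows (6.49%) belonged to genes that were low in Control, with a total of at least 5 in a library but not 100 in both. The remaining 69 rows (89.6%), of 68 genes, belonged to genes with at least 100 counts in both Control libraries and are called isoform changes, a name for the class that does not say which RNA was made.

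**Figure D1:**
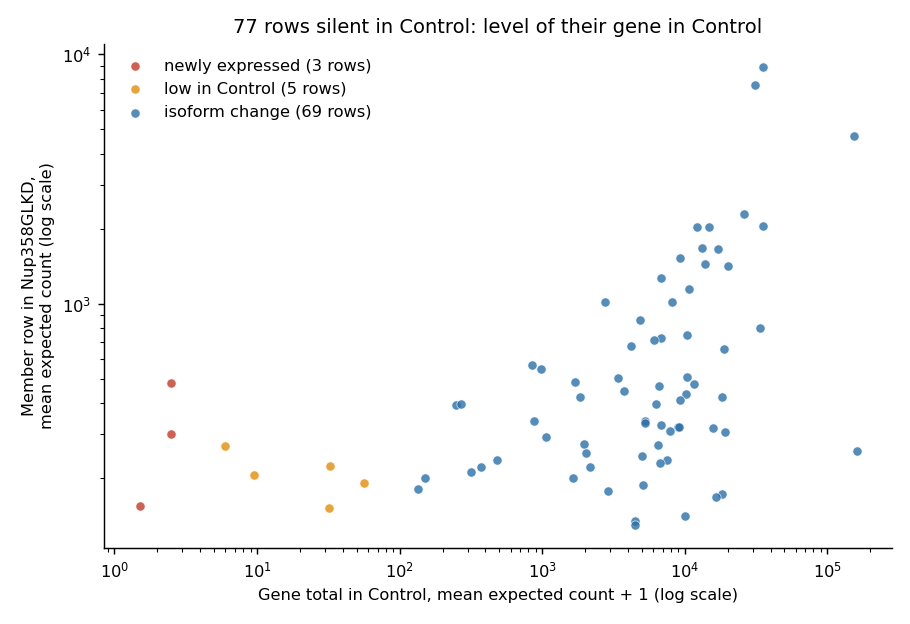
Each point is 1 of the 77 rows; the x axis gives the mean total of its gene in the 2 Control libraries (expected count plus 1, log scale) and the y axis the mean expected count of the row in the 2 Nup358GLKD libraries (log scale). The 3 rows of newly expressed genes and the 5 rows of genes low in Control lie at the left, and the 69 rows of isoform changes lie at the right, apart from them.

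The newly expressed genes were MFS9, Vajk1 and GstE10. MFS9, a transporter of the major facilitator superfamily, had gene totals of 0 and 3 counts in Control replicates 1 and 2 and of 675 and 335 in Nup358GLKD replicates 1 and 2. Its mean level was 0.0244 ± 0.0345 CPM in Control against 8.85 ± 4.64 CPM in the knockdown (SD, n = 2 per group). Both knockdown libraries were high, the first about double the second. The row of the set, NM_142632, took 93.6% and 100% of the gene's knockdown counts.

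Vajk1, which stands on the cuticle list used here, had gene totals of 3 and 0 counts in Control and of 344 and 321 in the knockdown, so that both knockdown libraries lay close together. The level was 0.0239 ± 0.0339 CPM in Control against 5.76 ± 0.601 CPM in the knockdown (SD, n = 2 per group). Row NM_001201871 had 0 counts in both Control libraries and took 85.5% and 96.4% of the gene's knockdown counts. GstE10, a glutathione S-transferase of the epsilon class, which conjugates toxic compounds to glutathione, had gene totals of 1 and 0 counts in Control and of 198 and 159 in the knockdown. Row NM_001299641 took 80.6% and 94.9% of these knockdown counts. The ratio of knockdown to Control for GstE10 was 383 with a wide exact 95% counting interval of 68.3 to 15159, since it rests on 1 Control count. Such intervals cover counting error only. Because the rule chose the rows of these genes by the same counts, the intervals are no test of the ratios.

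By the same bounds applied to gene totals instead of rows, these 3 were the genes found among the 16356 named in the table. Of these, 6016 had under 5 counts in both Control libraries, and 4901 of the 6016 had under 5 in both knockdown libraries as well. The reverse pattern, 100 or more in both Control and under 5 in both knockdown libraries, held for 2 genes. The noncoding antisense gene asRNA:CR43767 had 240 and 185 counts in Control and 0 in both knockdown libraries. The histone gene copy His2B:CG33906 had 157 and 112 counts in Control and 3.99 and 0 in the knockdown. Histone copies are nearly identical, and reads of such copies can be divided differently in each library.

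The genes low in Control were Oatp33Ea, CG5171, Lim1, CG5399 and Lsp2. Oatp33Ea, of the organic anion transporter family, had gene totals of 7 and 3 counts in Control and of 415 and 203 in the knockdown. Its ratio was 66.3 (counting interval 35.8 to 139). Its row of the set took 85.6% and 90.4% of the knockdown counts, as in the newly expressed genes, and its Control total alone put it in the other class.

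Lim1, a LIM-homeobox transcription factor that patterns legs, antennae and nervous system, had 6 and 11 counts in Control and 767 and 1611 in the knockdown. Both of its rows filled. Row NM_001272429, of the set, went from 4.57 and 0 to 149 and 264 counts, and row NM_132277, outside the set with 11 counts in Control replicate 2, went from 1.43 and 11 to 618 and 1347 counts. Lsp2, a larval serum protein stored and secreted by the fat body, had 17 and 45 counts in Control and 901 and 1080 in the knockdown, a ratio of 34.3 (counting interval 26.6 to 44.9). Most of its counts were on the row outside the set, and the row of the set took 18.8% and 12.4%. For Lim1 and Lsp2 the gene as a whole was near empty in Control, and its rows filled together.

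CG5171 had 35 and 28 counts in Control and 469 and 413 in the knockdown, and CG5399 had 56 and 54 counts in Control and 879 and 660 in the knockdown. Both had a ratio of 15.0. Their rows of the set took 56.9% and 43.4% of the knockdown counts of CG5171 and 31.3% and 16.3% of those of CG5399. For each of the 8 newly expressed and low genes, the knockdown libraries both exceeded the Control libraries, which the rule required of their rows. All 8 gene totals were whole numbers in every library within 0.05 counts, although no row of the set was whole in both knockdown libraries, so that within these genes RSEM's division concerned the rows and not the total.

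**Figure D2:**
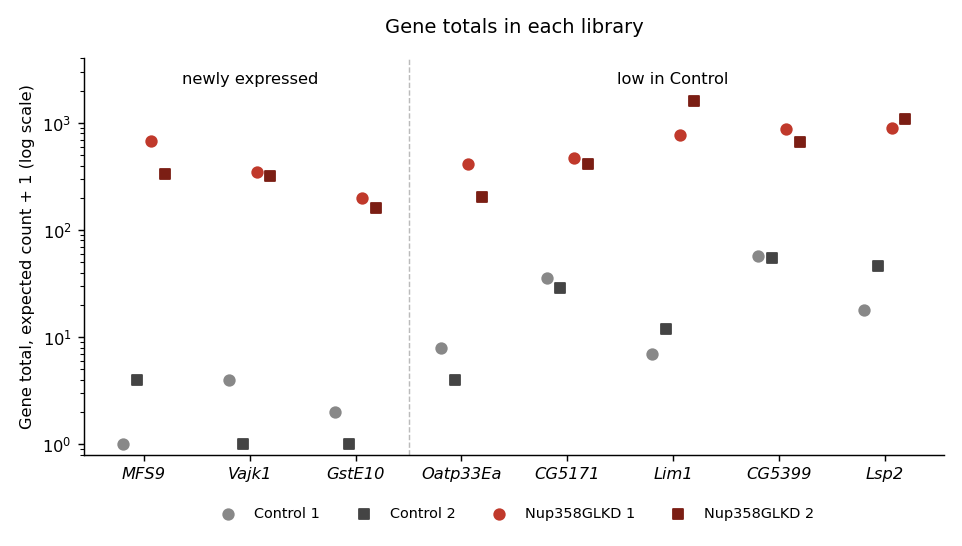
Gene totals (expected count plus 1, log scale) of the 3 newly expressed genes and the 5 genes low in Control, with 1 point for each of the 4 libraries. Control points reach 56 counts at most (CG5399), and knockdown points start at 159 counts (GstE10).

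Most tested relatives of these genes did not pass the test, and of all tested features 18.6% passed it in either direction. Of 12 tested epsilon-class genes other than GstE10, 0 rose, 2 fell and 10 did not pass edgeR's quasi-likelihood test, beside 9.59% of all 10191 tested features called higher and 9.03% called lower. GstE13 fell from 34.4 and 35.5 to 13.6 and 15.7 CPM (log2 change -1.25, SE 0.14, adjusted p = 0.028), and GstE7 fell from 15.9 and 16.1 to 3.40 and 6.35 CPM (adjusted p = 0.0489). GstE1, which overlaps GstE10 in the gene table, had 38.5 and 36.3 CPM in Control against 45.2 and 61.1 CPM in the knockdown, which missed the threshold (adjusted p = 0.12). The strand setting of the counting is not given in the sources used here, so reads of overlapping and antisense genes cannot be told apart. Vajk1 overlaps Ance-3, which stayed at or below 0.054 CPM in every library.

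Of 8 tested MFS genes other than MFS9, 1 rose, 2 fell and 5 did not pass. MFS16 rose from 70.5 and 74.2 to 401 and 228 CPM (log2 change 2.12, SE 0.32, adjusted p = 0.0343), and MFS12 fell from 17.5 and 19.2 to 2.62 and 2.59 CPM (log2 change -2.81, SE 0.18, adjusted p = 0.0273). MFS18 also fell, from 94.8 and 101 to 66.2 and 65.1 CPM (adjusted p = 0.0413). Of 3 tested Oatp genes other than Oatp33Ea, 1 rose, namely Oatp33Eb, which had 1 and 2 counts in Control and 14 and 15.7 in the knockdown (adjusted p = 0.0318). None of the 3 other larval serum protein genes passed the test, nor did Vajk4, the only other Vajk gene that was tested. The families were chosen after the names of the rows were seen. All of these calls were lost without Control replicate 1 or without Control replicate 2, when edgeR called 0 features (1717 and 1550 had an unadjusted p under 0.05).

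The nearest neighbours of the 8 genes, up to 2 on each side in the gene table, were 28 genes, of which 13 were tested. Of these 3 rose, 0 fell and 10 did not pass, beside 9.59% of all tested features called higher. Those that rose were Oatp33Eb beside Oatp33Ea, and MtnB and MtnE beside MFS9. Metallothioneins are small proteins that bind copper, zinc and cadmium, and several of their genes lie around MFS9. MtnB had 0 and 1 counts in Control and 75 and 360 in the knockdown (adjusted p = 0.0302), and MtnE had 2 and 0 counts in Control and 15 and 20 in the knockdown (adjusted p = 0.0426). MtnD, at 0 in either Control library and at 18 and 38 counts in the knockdown, did not pass (adjusted p = 0.0529). MtnA, which is not among these neighbours, rose from 13.5 and 13.8 to 86.9 and 133 CPM (log2 change 3.01, SE 0.26, adjusted p = 0.0279). MtnC, with 0 and 1 counts in Control and 0 and 2 in the knockdown, stayed near 0 and was not tested. The same held for MtnF, with 0 and 0 counts and then 2 and 0. The metallothioneins were chosen after their values were seen, and their calls too were lost without either Control library.

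The 68 genes with isoform changes were active in Control, with a median gene total of 6778 counts over the Control libraries, beside 4316 for all 4655 genes that had several rows and 100 or more counts in both Control libraries. They were 1.46% of those genes. They had a median of 6.5 transcript rows, beside 3. Of their 69 rows, 48 had exactly 0 counts in both Control libraries. The rows carried between 0.106% and 48.8% of their gene's knockdown counts as a mean of both libraries, with a median of 9.01%. In 17 genes the share was at least 10% in both knockdown libraries, and in 31 it was under 10% in both. In all but 1 of the 68 genes, another transcript row was the most abundant by the mean of the knockdown libraries.

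**Figure D3:**
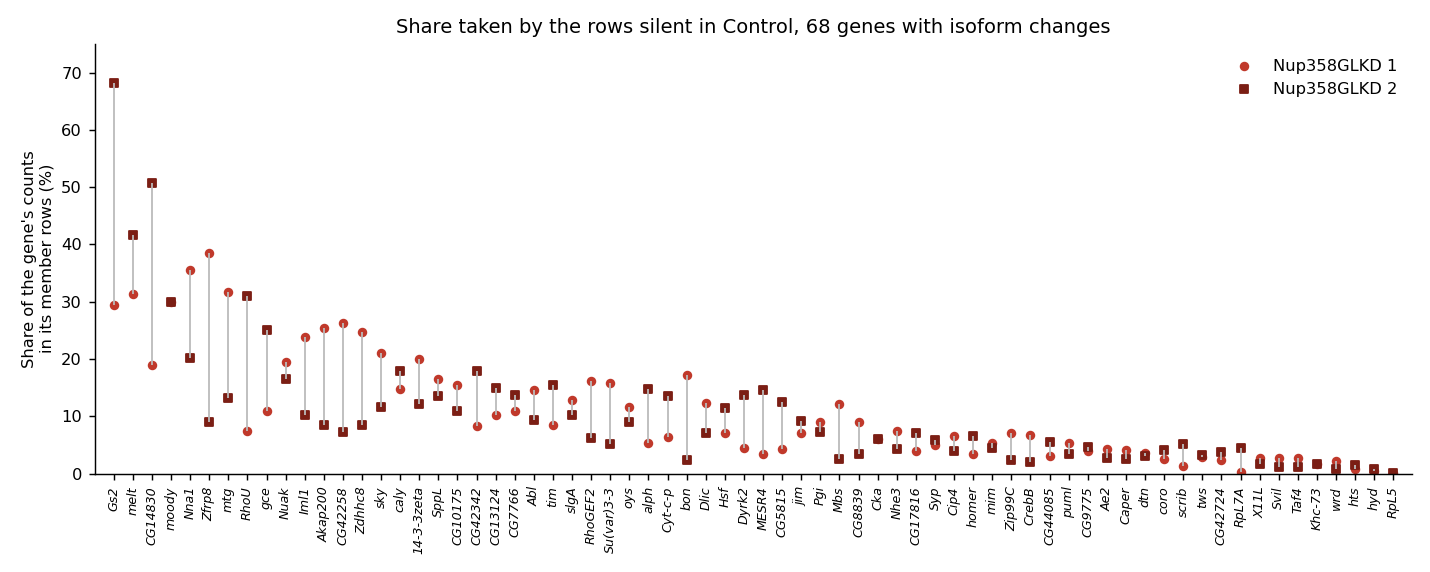
Share of each gene's counts (%) on its rows of the set in Nup358GLKD replicate 1 (circles) and replicate 2 (squares) for the 68 genes with isoform changes, in order of the mean; grey lines join the replicates. Gs2 is at the left with 29.4% and 68.2%, RpL5 is at the right with 0.12% and 0.0933%, and many genes have clearly different shares in the 2 replicates.

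Signalling was the role given to 13 genes, whose share ran from 1.46% to 36.5% (median 11.99%). They were 14-3-3zeta, Akap200, Abl, Nuak, Dyrk2, tws, wrd, alph, Mbs, CG7766, Cka, melt and Iml1. 14-3-3zeta, an adaptor that binds phosphorylated proteins, supplied 2 rows. Row NM_165741 was at 0 in either Control library and at 11185 and 6629 counts in the knockdown, and row NM_165742 had 0 and then 2384 and 1730. Together they took 20.05% and 12.15% of the gene, while row NM_001014516 had 24.4% and 24.7% in Control and 10.1% and 14.5% in the knockdown. The whole gene held 570 ± 12.5 CPM in Control against 1180 ± 51.6 CPM in the knockdown (SD, n = 2 per group), so the knockdown shares are of a higher total. In counts, row NM_001014516 had 8842 and 8547 in Control and 6857 and 9969 in the knockdown. Row NM_001014515, outside the set, had 17592 and 15793 and then 34144 and 37405.

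Akap200 anchors protein kinase A to membranes and the cytoskeleton. Its row NM_001298822 had 0 counts in Control and 11543 and 3590 in the knockdown, which was 25.3% and 8.55% of the gene. Row NM_058112 held 29.0% and 28.6% in Control and 0.0004% and 14.9% in the knockdown, so it emptied in the first knockdown library only. Other rows differed as well. Row NM_001298823 held 40.5% and 40.2% in Control and 51.1% and 55.1% in the knockdown. Row NM_058111 held 5.53% and 9.85% and then 0 and 0.65%. The phosphatase gene alph, of the PP2C class, had 0 counts in Control and 807 and 2511 in the knockdown on its row of the set, the larger value this time in the second library. Its gene total differed little, at 274 ± 3.60 and 278 ± 5.92 CPM in Control and knockdown (SD, n = 2 per group). CG7766, a regulatory subunit of phosphorylase kinase by its annotation, had 0.05 and 0 counts in Control and 1234 and 1310 in the knockdown. Its row NM_176716 did the opposite, with 390 and 397 counts in Control and 1.10 and 0 in the knockdown. The shares of melt, which acts in insulin signalling, were 31.3% and 41.7%, from a row at 0 in both Control libraries.

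The genes of the cytoskeleton, motors and cell polarity were RhoGEF2, RhoU, Cip4, mim, coro, hts, Svil, Dlic, Khc-73 and scrib, with shares of 1.19% to 19.3% (median 4.07%). RhoGEF2, an activator of Rho1, had 0.03 and 0.33 counts in Control and 2022 and 857 in the knockdown, 16.1% and 6.15% of the gene. In Dlic, the light intermediate chain of cytoplasmic dynein, a row filled and another emptied in both knockdown libraries. Its row of the set had 0 counts in Control and 1618 and 1230 in the knockdown, and its row NM_132466 had 1127 and 1278 counts in Control and 0 in both knockdown libraries. The 2 rows together were a small part of Dlic, whose total was 323 ± 8.34 CPM in Control against 264 ± 38.2 CPM in the knockdown (SD, n = 2 per group).

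Transcription and chromatin genes were bon, Hsf, Taf4, CrebB, jim, gce, MESR4, Su(var)3-3, caly and tim, with shares of 1.89% to 17.97% (median 9.55%). Hsf, the heat shock transcription factor, had 0 counts in Control and 407 and 1087 in the knockdown on its row of the set, 7.06% and 11.5% of the gene. Su(var)3-3, the fly LSD1 enzyme that removes methyl groups from histone H3 lysine 4, had 0.13 and 0 counts in Control and 318 and 174 in the knockdown. Its row took 15.8% and 5.09% of a gene total of 80.9 ± 2.57 CPM in Control against 46.5 ± 14.7 CPM in the knockdown (SD, n = 2 per group). The row of caly, the histone H2A deubiquitinase Calypso, took 14.8% and 17.9% from the single row that held all of its Control counts. The corepressor bon was among the least even, with 0.14 and 1.88 counts in Control and 2020 and 276 in the knockdown.

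Genes of metabolism and mitochondria were Pgi, slgA, Gs2, Cyt-c-p, oys and puml (4.31% to 48.8%, median 10.2%). Pgi, the glycolytic enzyme phosphoglucose isomerase, was one of the most even. Its row had 0 counts in Control and 2328 and 2246 in the knockdown, 9.001% and 7.24% of the gene, and its main row went from 91.3% and 92.2% to 78.0% and 82.2%. Cyt-c-p, cytochrome c, has 2 rows. All of its Control counts lay on one, and the other took 1135 and 1912 counts in the knockdown, 6.44% and 13.5%. In Gs2, a glutamine synthetase, the row of the set held 289 and 506 counts in the knockdown, 29.4% and 68.2% of the gene, and was the most abundant row in replicate 2 and by the mean. In replicate 1 row NM_206685 held more, with 383 counts (38.9%), against 0.21 counts in replicate 2. The gene total was 268 and 270 counts in Control and 985 and 741 in the knockdown.

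The acyltransferase gene oys had 0 counts in Control and 1934 and 2143 in the knockdown on its row of the set, 11.6% and 9.07%. Its other rows differed more. Row NM_136702 held 83.9% and 81.1% of the gene in Control and 24.0% and 53.2% in the knockdown, and row NM_001299336, outside the set, held 14.8% and 17.6% and then 63.5% and 37.3%. The proline dehydrogenase gene slgA had 0 counts in Control and 1738 and 1620 in the knockdown, 12.8% and 10.1%.

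Ribosomal and RNA-binding genes were RpL7A, RpL5, Syp, Caper and Zfrp8 (0.106% to 23.7%, median 3.35%). RpL7A, of the large ribosomal subunit, had the least even replicates of all. Its row of the set had 0.05 and 0.02 counts in Control and 729 and 8684 in the knockdown, only 0.30% and 4.46% of a very abundant gene. Zfrp8, which acts in stem cells and ribosome assembly, had 38.5% and 8.93%. Transport, receptor and membrane traffic genes were Ae2, Nhe3, Zip99C, moody and sky (3.50% to 29.9%, median 5.89%). The row of sky, a GTPase-activating protein for Rab proteins, had 0.24 and 0.48 counts in Control and 2404 and 1656 in the knockdown, 21.1% and 11.6%, while row NM_136229 went from 56.5% and 54.4% to 5.14% and 17.998%. The row of moody, a G protein-coupled receptor of the blood-brain barrier, had 0 and 1.76 counts in Control and took 30.0% and 29.9% in the knockdown, the same share in both libraries.

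Protein modification genes were hyd, SppL, Zdhhc8 and Nna1 (0.624% to 27.9%, median 15.8%). The ubiquitin ligase gene hyd shows the lower end, with 0.49% and 0.76% on its row. The remaining 15 genes, homer, X11L, mtg, dtn, CG42258, CG44085, CG9775, CG42724, CG13124, CG5815, CG10175, CG14830, CG42342, CG17816 and CG8839, had shares of 2.20% to 34.9% (median 6.17%). The role groups were made by hand after the names were seen and were not tested, and the roles of genes outside the set were not counted.

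**Figure D4:**
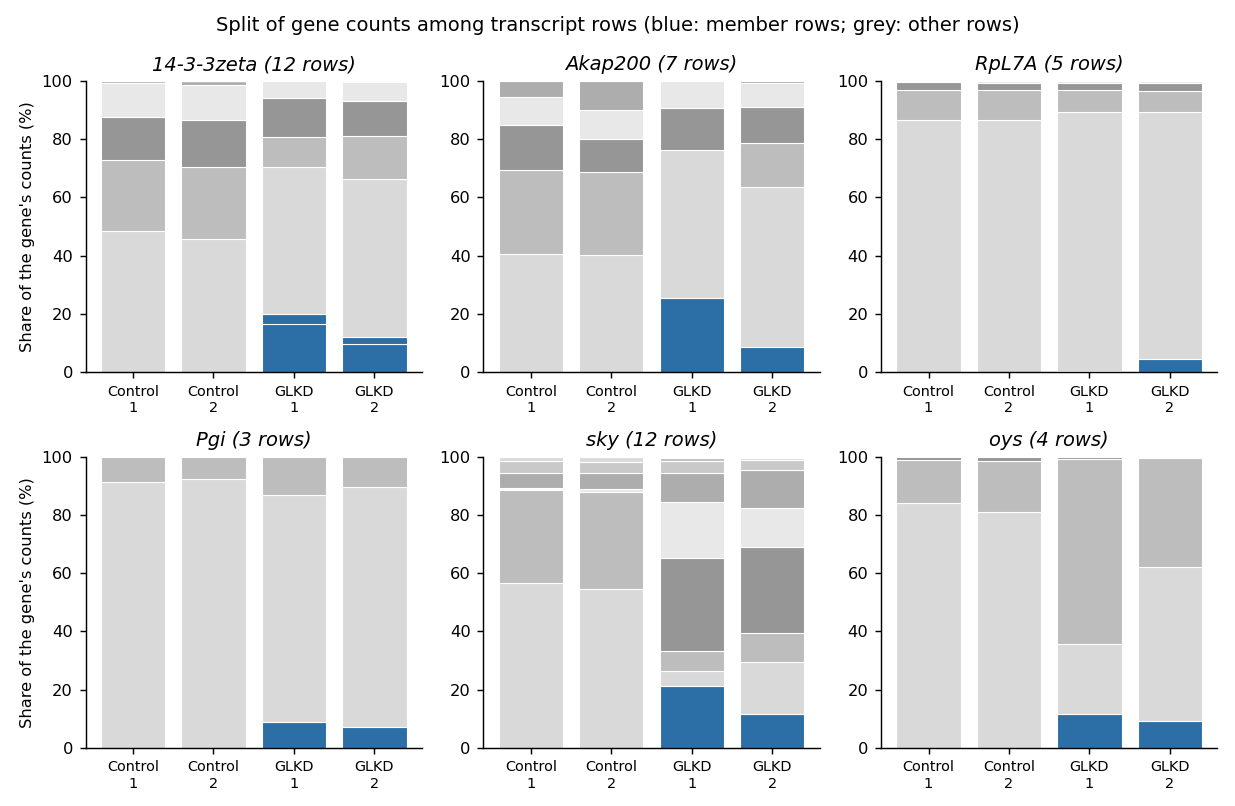
Split of gene counts (%, stacked to 100%) among transcript rows in each of the 4 libraries (GLKD is Nup358GLKD) for the 6 isoform-change genes with the highest CPM on rows of the set; blue is the rows of the set and grey the other rows. Blue is absent in Control and reaches 25.3% in the first knockdown library of Akap200, and the grey rows also differ between Control and knockdown and between the knockdown replicates.

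How far a gene's counts moved among its rows was measured as the percentage of counts that would have to change rows to turn one split into another. From the Control mean to the knockdown mean this was a median of 19.1% over the 68 genes, from 0.342% to 73.4%. Between the Control replicates it was 5.74%, and between the knockdown replicates 11.9%. The 4655 genes had medians of 5.61%, 2.58% and 4.63% for the same comparisons. In 48 of the 68 genes (70.6%) the split moved more between groups than between the knockdown replicates, beside 53.3% of the 4655 genes. The choice of rows favours genes that moved, so these values describe the set and do not test it. In 40 of the 68 genes the row of the set was the row with the largest gain in share. In 10 genes another row switched the other way, under 5 counts in both knockdown libraries from 100 or more in both Control libraries.

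Gene totals of the 68 had a median ratio of knockdown to Control CPM of 1.27, beside 0.949 for the 4655 genes. In 40 genes the ratio was within 1.5-fold, in 13 it was over 2. The knockdown libraries both exceeded the Control libraries in 43 genes and both fell short of them in 14, and the libraries overlapped in 11. Over the 4655 genes 33.4% lay above and 43.2% below. In edgeR's quasi-likelihood test of gene totals 15 of the 68 rose, 1 fell and 52 did not pass, beside 9.59% and 9.03% of all tested features. Those that rose were 14-3-3zeta, Cyt-c-p, Dyrk2, moody, RhoU, tim, Gs2, CG44085, Zip99C, jim, CG13124, CG10175, CG14830, mtg and Khc-73, and X11L fell. The rule used this same contrast, so nothing is read from these shares. All 16 calls were lost without Control replicate 1 or without Control replicate 2.

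The highest ratio of totals was that of CG44085 and the lowest that of CG42342. CG44085 had 14.8 and 13.3 CPM in Control against 239 and 80.5 CPM in the knockdown (ratio 11.4). CG42342 had 86.8 and 76.98 CPM in Control against 56.6 and 10.8 CPM in the knockdown (ratio 0.411), and also the largest movement among rows. The knockdown replicates of both genes lay far apart. tim, a circadian clock gene, had 31.0 and 28.7 CPM in Control against 58.3 and 61.8 CPM in the knockdown, with replicates close together.

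The knockdown replicates often disagreed on the rows of the set. Of the 77 rows, 30 differed more than 2-fold between the knockdown libraries, 29 of them isoform changes, and the median ratio of larger to smaller was 1.75. The highest was 11.9, for RpL7A. Replicate 1 was the higher in 49 rows and replicate 2 in 28. None of the 77 rows had whole counts in both knockdown libraries within 0.005, so the value of every row rested in part on reads that RSEM had divided. Gene totals were whole within 0.05 in all 4 libraries for 50 of the 76 genes.

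Switches of the same size occurred between replicates of one group. Taking single libraries, 130 mRNA rows were under 5 counts in Control replicate 1 and at 100 or more in Control replicate 2, and 185 the other way round. Between the knockdown replicates there were 245 and 218 such rows. From a Control library to a knockdown library there were 300 to 393, depending on the pair, and from a knockdown library down to Control 237 to 341 rows had the reverse pattern. Every count from Control up to knockdown exceeded every count within a group, whereas the reverse counts overlapped those within the knockdown. Most belonged to genes with 100 or more counts in the low library, within and between groups.

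The count of rows whose whole gene was under 5 in the low library set the pairs from Control up to knockdown more widely apart. There were 14 to 21 of these from Control to knockdown, 3 in either direction within Control, and 8 and 0 within the knockdown. Pairs low in a knockdown library and high in a Control library had 3 to 7, which overlapped the counts within groups. The reverse of the rule, under 5 in both knockdown and 100 or more in both Control libraries, gave 92 rows of 87 genes (0.295%), more than the 77 rows of the set. Of these 90 belonged to genes with 100 or more counts in both knockdown libraries. The largest was a row of the calcium pump gene SERCA with 13173 and 10368 counts in Control, 33.8% and 30.2% of the gene, and 0 in both knockdown libraries. The Control replicates agreed better on the reverse rows, with 16 of 92 more than 2-fold apart and a median ratio of 1.33. They also agreed better over all 10191 tested features. The SD of the log2 CPM difference between replicates was 0.415 in Control and 0.862 in the knockdown.

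**Figure D5:**
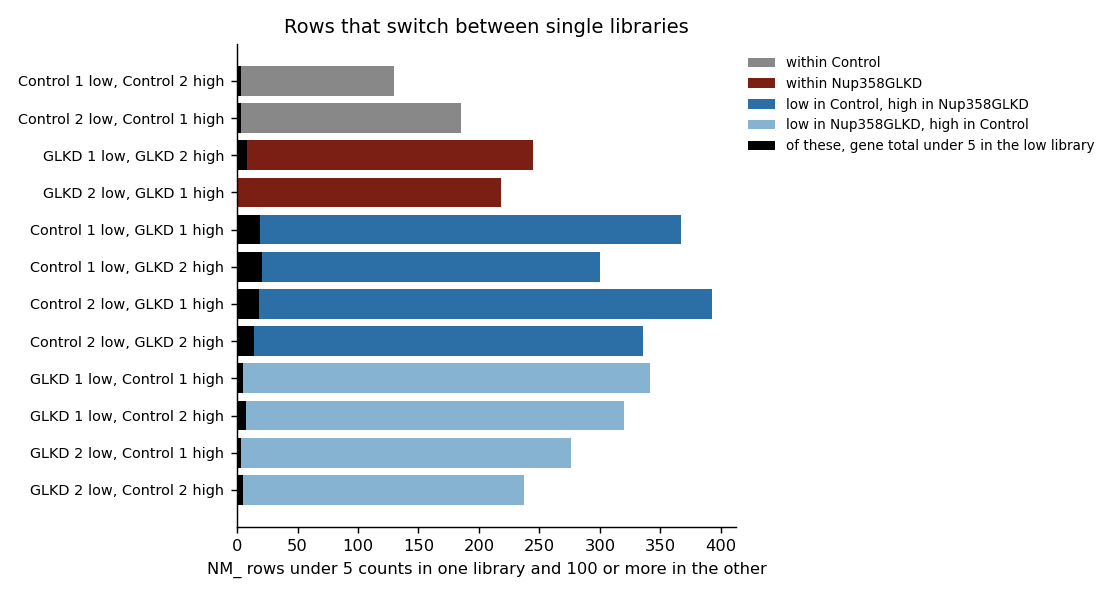
Number of mRNA rows under 5 counts in one library and at 100 or more in another, for every ordered pair of the 4 libraries (GLKD is Nup358GLKD); the black part is rows whose whole gene was under 5 in the low library. Pairs within a group give 130 to 245 rows, and pairs from Control up to knockdown give 300 to 393.

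Genes with isoform changes were longer and had more annotated coding forms than the 4655 genes with several rows, which include them. The rule takes single rows, so a gene with more rows had more chances to enter the set. In the Ensembl annotation of Release 6 they had a median of 6.5 transcripts and 4 distinct coding sequences, against 3 and 2, and their median length was 10855.5 bases, against 4296. All annotated transcripts shared 1 coding sequence in 10 of the 68 genes (14.7%), against 47.0%. In these genes, namely RpL7A, Pgi, Cyt-c-p, Zfrp8, CG8839, Zip99C, gce, caly, RpL5 and CG14830, the transcripts differ outside the coding sequence. An annotated transposon insertion lay within the span of 11 genes (16.2%), against 11.6%, and these were sky, bon, Abl, Svil, RhoU, mim, Cip4, scrib, jim, CG42724 and CG17816. None of the 8 newly expressed and low genes held one. The annotation describes the reference strain, and these shares were not tested or corrected for the length of the genes or their number of rows. Genes of the set were spread over arms 2L, 2R, 3L, 3R and X with 15, 15, 12, 19 and 15 genes, shares of 15.8% to 25% beside 19.1% to 21.0% for the 4655 genes, and 0 were on chromosome 4.

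On lists of genes around the members, counts are given without the members, which the rule chose from this contrast, and are read beside 9.59% of all tested features called higher and 9.03% called lower. Of 9 tested fat body genes other than Lsp2, 1 rose, 0 fell and 8 did not pass. The median log2 change of these 9 was 1.25, beside 0.01 over all tested features. The gene that rose was Fbp1, a receptor for larval serum proteins, from 0.112 and 0.276 to 1.04 and 1.79 CPM (adjusted p = 0.0476). Fbp2 and Lsp1gamma did not pass (adjusted p = 0.0635 and 0.0649). The summed level of the list, Lsp2 included, was 3467 and 3028 CPM in Control against 5904 and 4485 CPM in the knockdown, with no gene at 0 in all libraries. Lsp2 held at most 17.9 CPM of this sum and Fbp1 at most 1.79 CPM, so other genes of the list made up most of it. The part of the list in the values of Lsp2 was not tested. Of 22 tested cuticle and pigment genes other than Vajk1, 2 rose, 1 fell and 19 did not pass (median log2 change 1.47). Those that rose were m, a zona pellucida domain gene of the epidermis, from 0.638 and 0.764 to 5.48 and 6.08 CPM, and the pigment gene y, from 2.60 and 2.60 to 26.4 and 15.97 CPM (both adjusted p = 0.0279), while mey fell from 0.543 and 0.439 to 0.036 and 0.0665 CPM (adjusted p = 0.0339).

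Of 12 tested homeobox and developmental transcription factors other than Lim1, 0 passed edgeR's test and 6 had an unadjusted p under 0.05 (median log2 change 1.46). Of the genes named next, ey and CG32532 passed with DESeq2. Those with the smallest p were ey (from 0.591 and 0.553 to 1.44 and 1.38 CPM, adjusted p = 0.0516), CG32532 (0.0569) and exd (0.0643). Of 17 tested genes on the heat shock list other than Hsf, 1 rose, 0 fell and 16 did not pass (median 0.81). It was the cochaperone gene stv, from 7.76 and 8.86 to 55.3 and 39.8 CPM (adjusted p = 0.0279). Hsp26 (log2 change -1.48, adjusted p = 0.0591) and Hsp70Aa (log2 change 6.13, adjusted p = 0.061) came next without passing, in opposite directions. The heat shock list, Hsf included, summed to 8864 and 9339 CPM in Control against 6840 and 6218 CPM in the knockdown. Of 17 tested genes of H3K9 methylation in the germline other than Su(var)3-3, 0 rose, 5 fell (29.4%, beside 9.03% of all tested features) and 12 did not pass (median -0.32). Those with the smallest p were wde, CoRest and Panx, and mael and egg also fell. CoRest, the partner of LSD1, went from 153 and 161 to 61.7 and 70.7 CPM (adjusted p = 0.0279). Among 21 tested glutathione S-transferase and cytochrome P450 genes there were 2 that rose, 3 that fell and 16 that did not pass (median 0.79). The summed level of this list was nevertheless lower, at 1376 and 1414 CPM in Control against 503 and 677 CPM in the knockdown. Cyp6d4 fell from 87.5 and 95.5 to 8.47 and 10.2 CPM (adjusted p = 0.0273), and GstD3 fell as well (0.0292). GstD5 rose from 0.718 and 0.569 to 2.71 and 3.07 CPM (0.0317). Every one of these calls was lost without Control replicate 1 or without Control replicate 2.

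Markers of other cells differed between the knockdown libraries. Muscle sheath genes summed to 350 and 282 CPM in Control and to 1563 and 347 CPM in Nup358GLKD replicates 1 and 2. Of these genes 0 of 10 passed, and all 10 had a log2 change above 0 (median 1.45). Hemocyte genes summed to 360 and 337 CPM in Control against 1196 and 473 CPM in the knockdown. Of the 7 tested, 0 passed and all 7 had a log2 change above 0 (median 1.61). Follicle cell genes went from 11361 and 12770 CPM to 4219 and 10807 CPM, with 1 of 9 passing as higher (Fas3). The median log2 change of the follicle list was 0.90 and 5 of its 9 genes had a change above 0, so the lower sum came from its abundant eggshell genes, such as Cp36 (3581 and 4175 CPM in Control, 937 and 3081 CPM with Nup358 depleted). Germline genes went from 2799 and 2843 to 4326 and 4110 CPM, with 1 of 7 passing as higher (orb). The 24 matched genes of the testis list summed to 1527 and 1571 CPM in Control against 826 and 1414 CPM in the knockdown. Of them 6 were tested, 0 passed, and 9 were at 0 in every library, among them ProtA, ProtB and kl-5. The sum therefore rests on few genes of the list and does not by itself measure testis RNA. Gut genes summed to at most 6.79 CPM in any library, and 0 of 2 tested genes passed. Neuron genes summed to 82.3 and 78.6 CPM in Control against 83.2 and 69.7 CPM in the knockdown, with 1 of 5 tested genes higher (elav), 1 lower (cac) and VGlut at 0. The replicate with high muscle and hemocyte sums was replicate 1, in which 49 of the 77 rows were the higher. Their part in the values of the rows was not tested.

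Rows close to the bounds show how the set was delimited. Just inside the bound of 100 counts, puml had 158 and 101 counts in the knockdown and mtg 261 and 102. Just outside it, a row of the splicing factor gene B52 had 195 and 94.8 counts and a row of the kinase gene Btk 92.3 and 100.39. Just inside the Control bound of 5, CG5171 had 4.89 and 0 counts and Lim1 4.57 and 0. Just outside it, CG15005 and the ionotropic receptor gene Ir94f each had 4 and 5 counts in Control, with 441 and 126 counts and 2324 and 1106 counts in the knockdown.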

How the data were processed

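The labels divide the poly(A)-enriched ovary libraries into 2 Control and 2 Nup358GLKD. The deposited values are expected counts per RefSeq transcript, which the authors made with RSEM and Bowtie2 on the build dm3, per the submitters' processing notes. Their versions, the annotation and the strand setting are not given in the sources used. The table has 34705 rows, of which 34437 are RefSeq transcripts and 268 transposon or cluster rows. Rows were summed per gene with the NCBI RefSeq gene table of Release 6, which matched 34035 RefSeq rows to 16356 genes and left 402 unmatched. Release 6 annotation gave names, gene order, overlaps, gene lengths, transcript numbers and transposon insertions within genes. No coordinates of it are printed or joined to dm3. Sums were rounded and tested across all features in edgeR 4.0.16 (R 4.3.3) by quasi-likelihood F-test, after TMM scaling and the filterByExpr filter (minimum count 10, minimum total 15), with robust=TRUE and legacy=FALSE in glmQLFit, with a Benjamini-Hochberg adjusted p under 0.05 as threshold. The code was tested on simulated data. CPM use TMM-scaled library sizes, and counting intervals are exact and conditional on the sum. Alternatives used DESeq2 1.42.0, RLE factors, no filter, unsummed rows, a replicate block, other bounds and each library left out in turn.

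The rows and the gene lists were chosen with earlier results of these data known. The rule for named genes took up to 15 newly expressed genes (3 were found), the 12 isoform-change genes with the highest CPM on their rows, every member on a list, the rows nearest to the bounds, Nup358, and up to 3 other genes of smallest p from each list. Departing from it, lists without a member were left out, apart from the cell type markers and the glutathione S-transferase list. Families, neighbours, metallothioneins, role groups, the genes low in Control and the other named genes were chosen after names or values were seen. In the H3K9 list an ambiguous synonym was replaced by Su(var)3-3 after that gene was known to be a member.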

Additional observations from a re-analysis of the deposited data

How the results depend on the processing

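The 77 rows became 142 with a knockdown bound of 50 counts and 47 with a bound of 200, and between 147 and 187 when 1 library was left out, which loosens the rule. Newly expressed rows went from 3 to 7 when gene totals under 50 counts qualified and to between 5 and 11 without 1 library, and isoform changes from 69 to between 119 and 166. edgeR called 1897 features in all. DESeq2 called 3846 and the rows as deposited gave 1. Leaving out a library gave 0 to 8007, with 0 without either Control library (1717 and 1550 at an unadjusted p under 0.05), 6505 without Nup358GLKD replicate 1 and 8007 without replicate 2. Where a group kept 1 library, its spread was taken from the other group. With a replicate block edgeR called 2388. Replicate numbers were not taken as pairing, since the deviations of same-numbered libraries correlated at 0.111 and there are only 2 pairs. Of 29 genes followed through the settings, none changed direction. All 29 kept their side of the threshold with RLE factors, and 3 lost their call without a filter (Fbp1, MtnE and GstE7), 1 with DESeq2 (Oatp33Eb) and 1 with the replicate block (MFS18). Calls were also gained, 7 with DESeq2 and 6 with the replicate block, Nup358, Fbp2, CG32532, Hsp26, Hsp70Aa and MtnD with both and ey with DESeq2. Without either Control library 20 lost their call, and without either knockdown library 9 gained one. With 2 libraries per group, counts of a few reads in Control limit every ratio of the newly expressed genes.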
